A study of Sus scrofa with 4 samples.

Results

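The 9 genes described here encode classical cadherins (CDH1, CDH2, CDH3 and CDH11), the related CDH13, the catenins CTNNA1 and CTNND1, and the nectins NECTIN1 and NECTIN4. They were chosen by name, as adherens junction genes other than beta-catenin, and all 9 were found among the 29837 named genes of the deposited table. RNA was sequenced from epidermal cells of 2 juvenile pigs, 88R and 95R, in which the LGR5 promoter drives a green fluorescent protein joined to histone H2B (H2B-GFP). From each pig, sorting on GFP gave 1 library of LGR5-high cells and 1 of LGR5-negative cells. Both populations carry the same knock-in, inserted into 1 LGR5 allele. The line was founded from edited clonal fibroblasts by nuclear transfer, and whether these pigs were founders or their progeny is not given in the sources used here. H2B-GFP is diluted by cell division, so the sort reads past as well as present LGR5 activity, and cells of low GFP were not analysed here.

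Adherens junctions hold neighbouring keratinocytes together. The outer part of a classical cadherin binds the same kind of cadherin on the next cell, while its tail holds p120-catenin, which keeps the cadherin at the surface, and beta-catenin, which recruits alpha-catenin and through it actin. Nectins are immunoglobulin-like adhesion molecules that reach actin through afadin. In skin, E-cadherin is found throughout the epidermis and P-cadherin is best known from basal and follicular cells, whereas N-cadherin and cadherin-11 are best known from neural and mesenchymal cells.

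Library totals lay between 30696803 and 32463362 counts of named genes. At this depth, 3 counts, taken as the smallest usable signal, had between 0.0873 and 0.105 CPM (counts divided by the library's total, after edgeR's trimmed-mean scaling, and given per 1000000). LGR5 itself had 4551 and 6224 counts in LGR5-high and 36 and 109 in LGR5-negative. KRT5, a keratin of basal keratinocytes, had between 789559 and 842315 counts in every library. Of 7 keratinocyte markers tested, 4 were lower (57.1%, beside 22.0% of all tested genes) and 0 higher (with the replicate block, 4 and 1, KRT15). The lower ones were KRT1, KRT10 and the integrins ITGA6 (log2 fold change -0.94) and ITGB4 (-0.38). ITGB4 lost its call without either LGR5-high library. KRT10, a keratin of differentiating epidermis, had 95275 and 84487 counts in LGR5-high against 884689 and 803573 in LGR5-negative.

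The comparison asks how LGR5-high cells, which the paper takes as hair follicle stem cells, differ from LGR5-negative cells of the same epidermal preparations. CDH2 and CDH11 were higher in LGR5-high cells, by 21.8-fold and 5.91-fold, while CDH1 and CDH3, the cadherins of keratinocytes, differed by less than the spread between libraries. NECTIN1 was 1.25-fold lower. With edgeR's quasi-likelihood F-test, adjusted by Benjamini and Hochberg over all genes tested, 2 of the 9 members were higher, 1 was lower and 6 were not called at an adjusted p-value under 0.05. All 9 passed the filter on low counts. Of the 15980 genes tested, 22.7% were higher and 22.0% were lower, beside 22.2% and 11.1% of the members. Their median log2 fold change was -0.05, beside 0.02 for all tested genes, and their median absolute log2 fold change was 0.16, beside 0.47. A replicate block for the pig left the same 2 genes higher and the same 1 lower, while 28.5% and 27.2% of all tested genes were called in these directions.

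**Figure D1:**
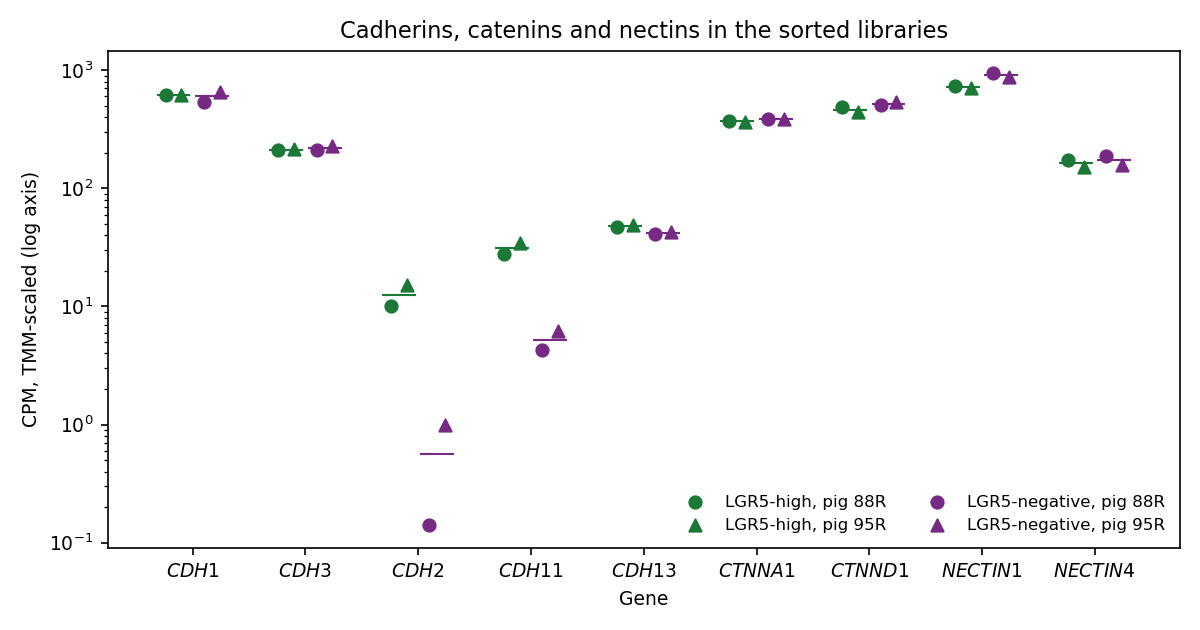
Normalized level of each member in each library, in CPM on a log axis, by gene. Circles are pig 88R, triangles pig 95R, green LGR5-high and purple LGR5-negative, and the short lines are the means over the 2 pigs. The populations stand apart for CDH2 and CDH11 and lie close together for the other genes.

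CDH2 encodes N-cadherin. Its LGR5-high counts were 348 in pig 88R and 497 in pig 95R, and its LGR5-negative counts 4 and 30. These counts gave 12.6 ± 3.48 CPM (SD, n = 2) in LGR5-high and 0.567 ± 0.603 CPM (SD, n = 2) in LGR5-negative. Both LGR5-high libraries were above both LGR5-negative libraries, and within each population pig 95R had the higher count. This was a log2 fold change of 4.44 (SE 0.652, edgeR adjusted p = 0.00344), and the 95% interval ran from 2.83 to 6.06. Pig 88R alone gave 5.64 and pig 95R alone 3.84, and with a single library in each population of a pig, this difference between the pigs was not tested. In LGR5-negative, the library of pig 88R stood 1 count above the 3 taken as the smallest usable signal. By the absolute log2 fold change, CDH2 ranked 301 of the 15980 genes.

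CDH11 encodes cadherin-11, a type II classical cadherin. Its LGR5-high counts were 952 in pig 88R and 1133 in pig 95R, and its LGR5-negative counts 122 and 187. The normalized levels were 31.0 ± 4.67 CPM (SD, n = 2) in LGR5-high and 5.23 ± 1.35 CPM (SD, n = 2) in LGR5-negative. The populations did not overlap, and as for CDH2, pig 95R was the higher of the pigs in both populations. The difference was 2.56 on the log2 scale (SE 0.22, edgeR adjusted p = 5.13e-04, 95% interval from 2.02 to 3.11), and the pigs taken singly gave 2.68 (88R) and 2.46 (95R). Unlike CDH2, CDH11 was well above the smallest usable signal in LGR5-negative cells too.

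CDH1 encodes E-cadherin. It had 21189 and 20453 counts in LGR5-high, and 15430 and 19941 in LGR5-negative, for pigs 88R and 95R. The LGR5-high libraries, at 616 and 619 CPM, lay between the LGR5-negative libraries, at 541 CPM in pig 88R and 660 CPM in pig 95R. Its log2 fold change was 0.040 (edgeR adjusted p = 0.793), and its 95% interval ran from -0.24 to 0.32. CDH1 was higher in LGR5-high cells of pig 88R (0.19 on the log2 scale) and lower in those of pig 95R (-0.092).

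CDH3 encodes P-cadherin. With 7245 and 7053 counts in LGR5-high and 6043 and 6858 in LGR5-negative, its levels were 212 ± 1.94 CPM (SD, n = 2) and 219 ± 10.5 CPM (SD, n = 2). The lowest and the highest of the 4 libraries differed by little, and the populations overlapped. On the log2 scale the difference was -0.049 (edgeR adjusted p = 0.638), with a 95% interval from -0.24 to 0.14. In the gene order of the RefSeq annotation of Sscrofa11.1, CDH1 and CDH3 are neighbours.

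CDH13 encodes T-cadherin, which is held in the membrane by a lipid anchor and has no catenin-binding tail. Its counts were 1623 and 1600 in LGR5-high, and 1178 and 1296 in LGR5-negative. The levels of 47.8 ± 0.863 CPM (SD, n = 2) and 42.1 ± 1.09 CPM (SD, n = 2) did not overlap between the populations. A log2 fold change of 0.18 (edgeR adjusted p = 0.143) with a 95% interval from -0.035 to 0.40 left CDH13 not called. It was called higher when libraries were scaled by the upper quartile (log2 fold change 0.28, adjusted p = 0.0488) or by library size only (0.41, adjusted p = 0.0136), with the same test.

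**Figure D2:**
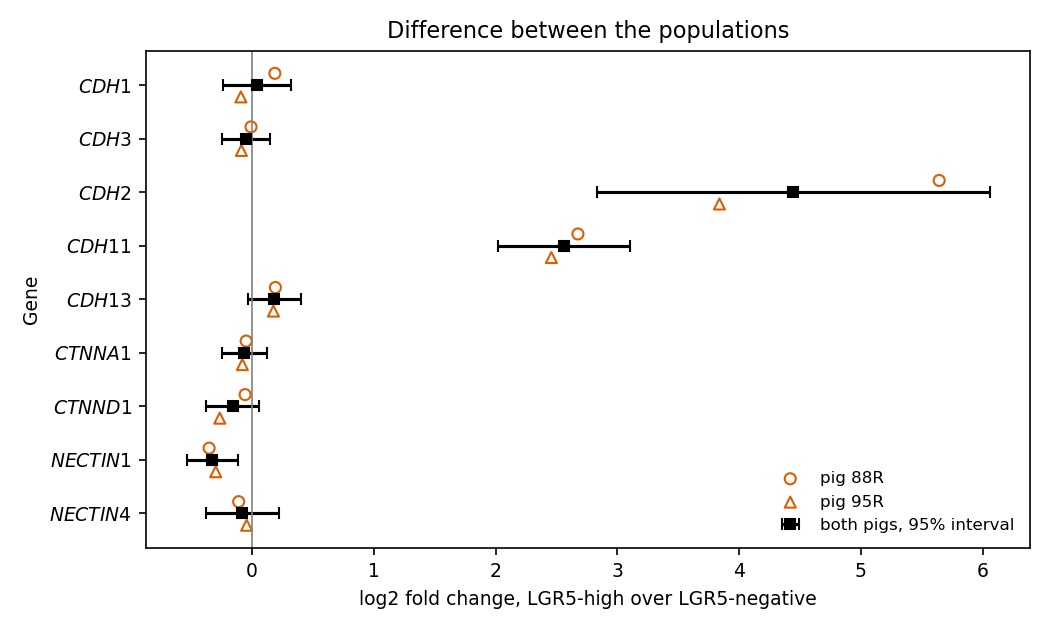
The log2 fold change of LGR5-high over LGR5-negative for each member. Black squares are the estimates from both pigs with 95% intervals, open circles pig 88R and open triangles pig 95R. The intervals of CDH2 and CDH11 lie far above 0, that of NECTIN1 lies below 0, and the others span 0.

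CTNNA1 encodes alpha-E-catenin, which connects the cadherin complex with actin. It had 12791 and 12007 counts in LGR5-high and 10967 and 11610 in LGR5-negative. In CPM, the LGR5-high libraries (372 and 364) were just below the LGR5-negative libraries (385 and 384). The log2 fold change of -0.064 had a 95% interval from -0.25 to 0.12 (edgeR adjusted p = 0.518). CTNND1 encodes p120-catenin, the catenin that keeps cadherins at the cell surface. It had 16617 and 14646 counts in LGR5-high and 14335 and 16106 in LGR5-negative, or 463 ± 28.3 CPM and 518 ± 21.2 CPM (SD, n = 2 each). Its log2 fold change was -0.16, with a 95% interval from -0.38 to 0.05 (edgeR adjusted p = 0.184). Neither catenin was called, although the libraries of the populations did not overlap in CPM for either. Of all tested genes, 23.4% had overlapping libraries, so a lack of overlap was common.

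NECTIN1 encodes nectin-1, which is also an entry receptor of herpes simplex virus. Its counts were 25312 and 23414 in LGR5-high, and 26800 and 26347 in LGR5-negative. All LGR5-high values were below all LGR5-negative values, at 723 ± 19.5 CPM (SD, n = 2) against 906 ± 48.5 CPM (SD, n = 2). NECTIN1 was thus at -0.33 on the log2 scale (SE 0.0853, edgeR adjusted p = 0.0256), and at -0.35 and -0.30 in pigs 88R and 95R taken singly. This call was lost with upper quartile scaling (-0.23, edgeR adjusted p = 0.0737) and with library size only (-0.10, edgeR adjusted p = 0.342). Leaving out either library of pig 88R, or the LGR5-high library of pig 95R, lost the call as well, with log2 fold changes of -0.36, -0.28 and -0.29. A change of scaling moves all genes alike. Relative to the median of all tested genes NECTIN1 therefore stayed at -0.34 under each of the 4 scalings by construction, which adds nothing to the call.

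NECTIN4 encodes nectin-4, whose loss is known to cause a human disorder of ectoderm with sparse hair. It had 6000 and 5033 counts in LGR5-high and 5369 and 4750 in LGR5-negative. The levels of 163 ± 15.7 CPM and 173 ± 22.1 CPM (SD, n = 2 each) overlapped. Its log2 fold change was -0.080 (95% interval from -0.38 to 0.22, edgeR adjusted p = 0.619). Both populations had the higher level in pig 88R. Across the 6 members that were not called, the 95% intervals lay between -0.38 and 0.40 on the log2 scale.

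Ratios of counts within a library do not depend on the scaling between libraries. They were taken against CDH1 and describe a change in the mix of transcripts, not their absolute levels, which would need the transcript lengths. Per 1000 CDH1 counts LGR5-high held 16.4 (88R) and 24.3 (95R) CDH2 counts, against 0.259 and 1.50 in LGR5-negative. In pig 88R, CDH2 made up 1.62% of the counts of CDH1 and CDH2 in LGR5-high (95% exact binomial interval 1.45 to 1.79%) and 0.0259% in LGR5-negative (0.00706 to 0.0663%). In pig 95R the shares were 2.37% (2.17 to 2.59%) and 0.15% (0.101 to 0.214%). These intervals cover counting error only, and may be too narrow even for that, since amplified reads are not independent molecules. The ratio of CDH2 to CDH1 was therefore 63.4 times as high in LGR5-high cells of pig 88R and 16.2 times as high in those of pig 95R.

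For CDH11, there were 44.9 and 55.4 counts per 1000 CDH1 counts in LGR5-high, and 7.91 and 9.38 in LGR5-negative. This ratio was 5.68 times as high in LGR5-high cells of pig 88R and 5.91 times as high in pig 95R. CDH3 had 342 and 345 counts per 1000 CDH1 counts in LGR5-high and 392 and 344 in LGR5-negative, so the balance of P-cadherin and E-cadherin transcripts overlapped between the populations. In pig 88R its share of the pair was 25.48% (24.97 to 25.99%) in LGR5-high and 28.14% (27.54 to 28.75%) in LGR5-negative. In pig 95R these binomial intervals overlapped. CDH13 had 76.6 and 78.2 counts per 1000 CDH1 counts in LGR5-high, and 76.3 and 65.0 in LGR5-negative. The binomial intervals of its share overlapped in pig 88R and were apart in pig 95R. For the ratio of the 2 catenins, the binomial intervals were apart in pig 95R alone. There were 1299 and 1220 CTNND1 counts per 1000 CTNNA1 counts in LGR5-high and 1307 and 1387 in LGR5-negative. Per 1000 CDH1 counts, CTNND1 had 784 and 716 in LGR5-high against 929 and 808 in LGR5-negative, without overlap. CTNNA1 had 604 and 587 against 711 and 582, which overlapped. The nectins differed in the same direction in both pigs, with 237 and 215 NECTIN4 counts per 1000 NECTIN1 counts in LGR5-high and 200 and 180 in LGR5-negative. With 2 libraries against 2, an exact permutation test of a ratio cannot go below p = 0.333, and none was made.

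**Figure D3:**
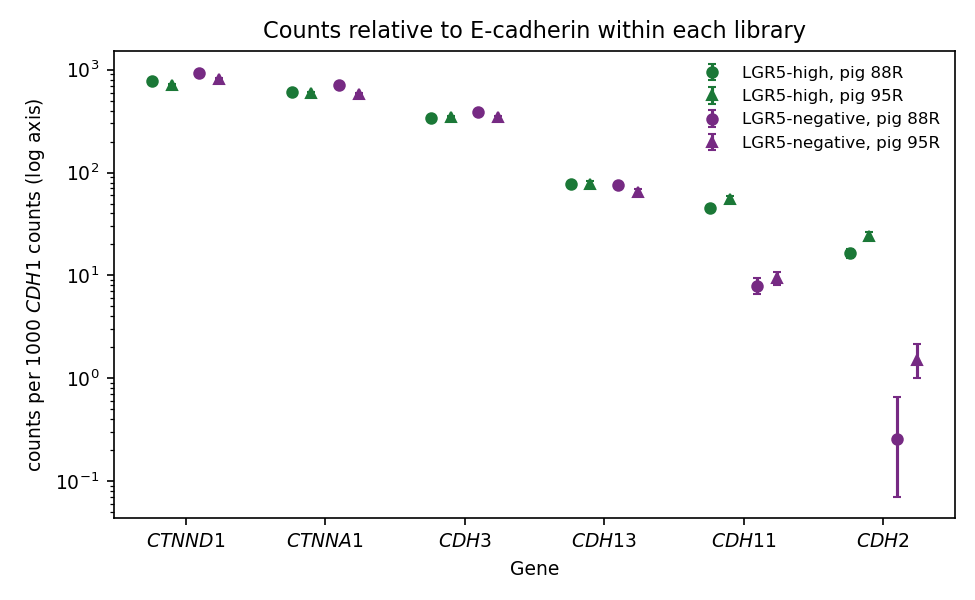
Counts of 6 members per 1000 CDH1 counts in the same library, on a log axis. Circles are pig 88R, triangles pig 95R, green LGR5-high and purple LGR5-negative, and the bars are 95% exact binomial intervals for counting error. CDH2 falls to 0.259 in the LGR5-negative library of pig 88R, while CDH3 and CTNNA1 overlap between the populations. CTNND1 is lower in both LGR5-high libraries (784 and 716) than in both LGR5-negative libraries (929 and 808).

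Of the tested genes, THBS4, DAB1 and LOC100624109 had the pattern over the 4 libraries most like that of CDH2, by the Euclidean distance of their centred log2 CPM (0.232, 0.408 and 0.443). For NECTIN1 they were ANKRD12, WBP2 and SERP1, at distances of 0.0131, 0.0215 and 0.0223. Such distances over 4 libraries describe these libraries only.

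Among 68 other genes of the adherens junction, grouped by role, 57 were tested. LGR5-high had higher levels of 16 (28.1%) and lower levels of 24 (42.1%), beside 22.7% and 22.0% of all tested genes. The median log2 fold change of the 57 was -0.16, beside 0.02 for all tested genes. With library size only in place of the trimmed mean, 24 were higher and 18 lower, beside 34.2% and 14.6% of all tested genes. The median was then 0.06, beside 0.24 for all tested genes. Of the 14 other classical and type II cadherins, 9 were tested, 2 were higher (22.2%) and 3 lower (33.3%). CDH20 had 70 and 73 counts in LGR5-high and 0 in both LGR5-negative libraries, and against 3 counts per library it was at least 20.8-fold higher. CDH12 had 198 and 151 counts in LGR5-high against 3 and 5 in LGR5-negative (log2 fold change 5.21). The lower genes were CDH18 (15 and 7 counts against 92 and 129), CDH15 (log2 fold change -1.94), known from muscle, and CDH5, the cadherin of endothelium, which had 1 count in each LGR5-high library against 17 and 21 in LGR5-negative.

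Of the other catenins, 6 were tested, 2 were higher and 2 lower (33.3% each, beside 22.7% and 22.0% of all tested genes). CTNND2, a relative of p120-catenin best known from neurons, had 2616 and 2816 counts in LGR5-high and 10 and 21 in LGR5-negative (log2 fold change 7.25, SE 0.239), while CTNND1 was not called. Beta-catenin (CTNNB1) was higher by 1.05 on the log2 scale (SE 0.0794), and by 1.05 and 1.04 in pigs 88R and 95R. CTNNAL1 (-0.80) and PKP4 (-0.63) were lower. Plakoglobin (JUP), which takes the place of beta-catenin on some cadherins, had a log2 fold change of -0.19 and was not called (edgeR adjusted p = 0.126).

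In the nectin group, NECTIN2 (2442 and 2114 counts in LGR5-high against 3744 and 4185) and AFDN (log2 fold change -0.79), which encodes afadin, were lower. CADM2 (3.58) and CADM4 (0.42) were higher. Of the 6 tested, this was 33.3% in each direction, beside 22.7% higher and 22.0% lower of all tested genes. Both CADM genes lost their calls when a library was left out, CADM2 without the LGR5-high library of pig 95R and CADM4 without any of the 4, and CADM2 had only 1 and 4 counts in LGR5-negative. Of 14 actin linkers, 4 were higher, among them ACTN1 (1.87), an actin crosslinker, PLEKHA7 (1.28), which binds p120-catenin, and VCL (0.52), which encodes vinculin and was not called without the LGR5-high library of pig 88R. Another 6 were lower, among them VASP (-0.83) and AJUBA (-0.58). These were 28.6% higher and 42.9% lower, beside 22.7% and 22.0% of all tested genes. Without the LGR5-high library of pig 88R, 2 linkers were higher and 4 lower. With library size only, 7 of these linkers were higher and 3 lower, while 34.2% of all tested genes were higher and 14.6% lower.

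Of 10 genes of cadherin cleavage and turnover, 4 were higher and 4 lower (40% each, beside 22.7% and 22.0% of all tested genes). NUMB (0.69), an endocytic adaptor, and the receptor phosphatase PTPRF (0.67) were higher, and ADAM15 (-1.20), PTPN1 (-0.88) and CBLL1 (-0.72), a ubiquitin ligase for E-cadherin, were lower. ADAM10, the sheddase of E-cadherin, had a log2 fold change of 0.51, and its call was lost without either library of pig 88R. Without the LGR5-high library of that pig, 2 genes of this list were higher. Of 12 tested transcription factors known to repress or sustain E-cadherin, 2 (16.7%) were higher, ELF3 (1.83) and TCF4 (1.35), and 7 (58.3%) were lower. The lower ones included the repressors ZEB1, with 5 and 2 counts in LGR5-high against 24 and 29, and ZEB2, with 5 and 7 against 30 and 43, and the epidermal factors OVOL1 (-1.90) and KLF4 (-1.56). ZEB1 lost its call without the LGR5-high library of pig 95R, and GRHL1 and GRHL2 lost theirs without some libraries, so that between 5 and 7 factors were lower when each library was left out. SNAI1 and SNAI2, the repressors named Snail and Slug, had log2 fold changes of -0.29 and -0.36 and were not called (edgeR adjusted p = 0.466 and 0.18), although SNAI2 was lower with the replicate block.

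**Figure D4:**
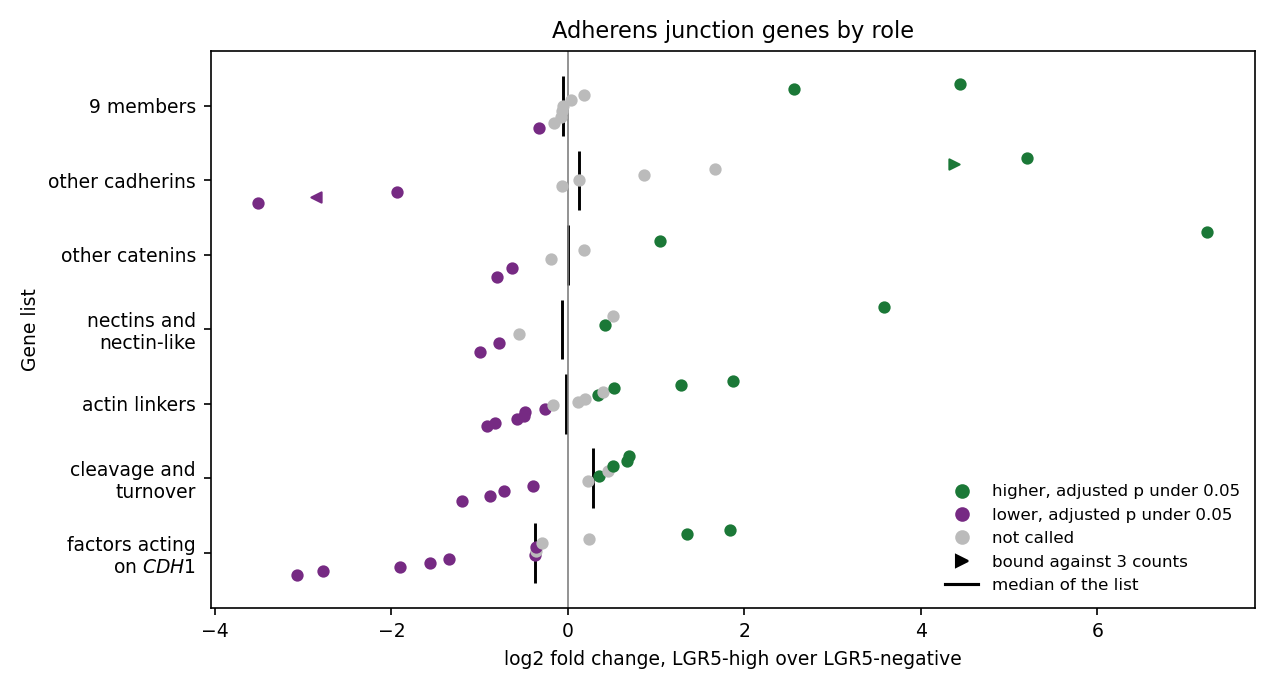
The log2 fold change of LGR5-high over LGR5-negative for every tested gene of each list, one point per gene, with the members at the top. Green points are higher and purple points lower at an adjusted p-value under 0.05, grey points are not called, triangles are bounds computed against 3 counts, and black lines are the medians of the lists. Most members lie near 0, with CDH2 and CDH11 to the right.

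CDH2 and CDH11 are also expressed outside the epithelium, so markers of other cells were read in the same libraries. In bulk RNA of sorted cells, fewer cells of a type and less RNA per cell cannot be told apart. Among 9 fibroblast and dermal markers, COL1A1, COL1A2 and THY1 were higher in LGR5-high, while COL3A1, DCN, LUM, PDGFRA and VIM were lower. This was 33.3% higher and 55.6% lower, beside 22.7% and 22.0% of all tested genes. PDGFRA had 4 and 3 counts in LGR5-high against 21 and 21. COL1A1 lost its call without either library of pig 95R (log2 fold changes of 1.12 and 1.32), and THY1 and PDGFRA without either LGR5-high library, so that 1 gene of the list was higher without the LGR5-high library of pig 95R. The summed level of the fibroblast list was 1238 and 1480 CPM in LGR5-high, and 713 and 425 CPM in LGR5-negative. COL1A1, COL1A2 and THY1 made up most of this sum in LGR5-high, whereas 5 of the 9 markers were lower and the list median was -0.82 on the log2 scale. Of 6 tested smooth muscle and pericyte markers, 5 were higher (83.3%), led by TAGLN (log2 fold change 4.96), and NOTCH3 was lower (16.7%). CNN1 had 166 and 151 counts in LGR5-high against 11 and 10, ACTA2 134 and 142 against 22 and 35, and MYH11 178 and 182 against 72 and 95, while DES had between 0 and 2 in any library. Without the LGR5-high library of pig 88R, 3 of these genes were higher. The sum of this list was 775 and 676 CPM in LGR5-high against 567 and 662 CPM in LGR5-negative, where NOTCH3 made up most of it. Without NOTCH3, a removal not planned in advance, the sum was 406 and 293 CPM in LGR5-high against 15.9 and 15.2 CPM in LGR5-negative. TAGLN alone held most of this remainder, with 389 and 277 CPM in LGR5-high against 11.4 and 9.99 CPM in LGR5-negative. Of 6 tested nerve and Schwann markers, NGFR, NCAM1 and S100B were higher (50%) and SOX10 and ERBB3 lower (33.3%). SOX10 was not called without the LGR5-high library of pig 88R, and S100B was not called without that of pig 95R. ERBB3 set the direction of this list's sum, which was 266 and 253 CPM against 335 and 330 CPM with it. Without ERBB3, a removal also not planned, the sum was 64.9 and 84.4 CPM against 5.54 and 10.8 CPM. NGFR alone then made up most of it in LGR5-high, with 51.11 and 65.05 CPM against 2.246 and 2.085 CPM in LGR5-negative. CDH19, a cadherin known from Schwann cells, had 0 counts in every library, which allows up to 3.

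The melanocyte list, which shares SOX10 with the nerve list, had 5 of 8 genes lower and 0 higher (with the replicate block, 6 and 1, MITF), but 2 lower without either LGR5-high library. With all libraries, 62.5% of this list were lower, beside 22.0% of all tested genes. The summed level of the list was 64.5 and 64.2 CPM in LGR5-high against 86.8 and 264 CPM in LGR5-negative. For the endothelial list, which holds CDH5 too, 5 of 8 were lower (62.5%) and TIE1 was higher (12.5%, beside 22.7% of all tested genes). The sum of this list was 11.4 and 12.8 CPM in LGR5-high against 23.8 and 24.8 CPM in LGR5-negative. TIE1 kept its call only without the LGR5-negative library of pig 95R, and 3 of the list were lower without any one of the other libraries. For the Langerhans and immune list, 5 of 7 were lower (71.4%) and AIF1 was higher (14.3%). This list summed to 22.5 and 16.8 CPM in LGR5-high against 178 and 157 CPM in LGR5-negative. The part of these cells in the values of CDH2, CDH11 and the other members was not tested. Transcripts alone were measured, and the cadherin proteins, which trypsin can cleave when cells are dissociated, were not.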

How the data were processed

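RNA of LGR5-high and LGR5-negative cells from 2 pigs was sequenced after poly(A) selection, in 4 libraries. The submitters' processing notes name Trimmomatic 0.36, STAR 2.5.2b and featureCounts of Subread 1.5.2. The genome build, annotation and strand setting are not given in the sources used here, so overlapping antisense reads cannot be told apart. Counts as deposited are whole reads per gene symbol and were not normalized. All 29837 symbols matched RefSeq's Sscrofa11.1 annotation, used for names and gene order. An entry without a name, between 0.36% and 0.626% of a library, was left out. The floor of 3 counts covers counting error only.

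In R 4.3.3, genes were kept by filterByExpr of edgeR 4.0.16 (minimum count 10, minimum total 15), scaled by TMM and compared with the quasi-likelihood test, 2-sided, with Benjamini-Hochberg adjustment over 15980 genes. Standard errors are the log2 fold change divided by the square root of F. Log2 fold changes of single pigs used a prior count of 2. As alternatives, Student's test, DESeq2 1.42.0 and voom of limma 3.58.1 were run, besides other scalings and filters, a minimum change and leaving out each library. The study's methods name Student's test but not the scale of its values, and here it was run on log2 of CPM plus 1. Because both populations came from each pig, and a pig's paired libraries deviated together (correlation 0.37 across genes), the pig was also fitted as a replicate block. Libraries of a population came from separate pigs. The pipeline was tested on simulated data, and plots used matplotlib 3.10.9.

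The members and lists were chosen with earlier results of these data known. All 9 members are named, and other genes by list, those called with the largest changes before the rest. A few genes named for low counts, other cells or missed calls were added after their values were seen. PVR and KRT14 were not analysed here. Values of some list genes are not reported here.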

Additional observations from a re-analysis of the deposited data

Results flagged for a closer look

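CDH1 went opposite ways in the 2 pigs. Pig 88R gave a log2 fold change of 0.19, whereas pig 95R gave -0.092. The pigs have 1 library in each population, so this difference was not tested.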

How the results depend on the processing

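CDH2 and CDH11 stayed higher, and called, without each library in turn and with every setting that tested them apart from Student's test on log2 of CPM plus 1. That test called 544 higher and 502 lower genes of all, and 0 and 0 members, with 3 and 1 members at an unadjusted p-value under 0.05, beside 3262 and 3129 of all 15980 genes. A minimum of 10 counts for each library left CDH2 untested and 1 member higher. Fitting the replicate block raised the calls to 4562 higher and 4342 lower genes, and changed the call of 0 members. For the changes that follow, the cause was not tested.

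With upper quartile scaling, 26.9% of all genes were higher and 18.3% lower, 3 members were higher and 0 lower, their median was 0.046, and CDH3 (0.046), CTNNA1 (0.031) and NECTIN4 (0.014) changed sign. Scaling by library size only gave 5473 higher and 2326 lower genes (34.2% and 14.6%), 3 members were higher and 0 lower, and their median was 0.17. CDH3 (0.17), CTNNA1 (0.16), CTNND1 (0.063) and NECTIN4 (0.14) then changed sign, while the median of all tested genes went from 0.02 to 0.24 (0.11 with upper quartile scaling). A minimum change of 1 on the log2 scale left 2339 higher and 1505 lower genes, and 0 members lower. Leaving out each library gave between 2279 and 3169 higher genes, between 2139 and 3004 lower genes and between 0 and 1 lower members, the last because NECTIN1 kept its call only without the LGR5-negative library of pig 95R. The median of the members lay between -0.070 and 0.019. CDH1 then lay between -0.10 and 0.18, NECTIN4 between -0.21 and 0.049, and CDH2 between 3.65 and 6.44, with the highest value without the LGR5-negative library of pig 95R. Depth limits CDH2 most, with 4 and 30 counts in LGR5-negative.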

Other observations

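CDH12 and CDH18 lie near each other in the RefSeq gene order of Sscrofa11.1 and went opposite ways. CDH12 had 198 and 151 counts in LGR5-high and 3 and 5 in LGR5-negative, and CDH18 had 15 and 7 against 92 and 129. Loci that overlap the members in the same annotation held few counts. LOC110261188, which overlaps CDH2, had 1 and 6 counts in LGR5-high and 0 in both LGR5-negative libraries, and LOC106507562, a pseudogene that overlaps CDH3, had between 82 and 199.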
